A study of Mus musculus with 2 samples.

Results

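The chemokines and chemokine receptors of the mouse were followed in the limb of C57BL/6J embryos at day 14.5 of development. Members were the protein-coding gene rows whose symbol is a Ccl, Cxcl, Xcl or Cx3cl ligand or a Ccr, Cxcr, Xcr, Cx3cr or Ackr receptor. This gave 59 genes, 37 ligands and 22 receptors, of 21474 protein-coding and 43346 gene rows. Cxcl11 has a matching name but is annotated as a polymorphic pseudogene and was left out; it held 8 and 13 counts in replicates 1 and 2.

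Polyadenylated RNA longer than 200 nucleotides was sequenced as strand-specific read pairs. The study has 1 group of 2 libraries, replicates 1 and 2, each made from pooled littermates of both sexes; the labels give both the same donor identifier and separate biosamples. No treatment, mutant or other stage is labelled, so the data give levels within the tissue, contrasts between genes, and the difference between the 2 libraries. Neither the litters of the pools nor the limbs taken are named in the labels, so a p-value here speaks only for these samples. Part of the spread between them may be technical, and the binomial test used below covers counting error alone.

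Chemokines are small secreted or membrane-tethered proteins that guide cells along concentration gradients. Most of their receptors signal through inhibitory G proteins, whereas the atypical receptors of the Ackr group bind chemokines without that signalling and clear or transport them. Homeostatic chemokines are made continuously and place progenitors, vessels and resident leukocytes during development; inflammatory chemokines are induced by injury or infection. In the embryonic limb, Cxcl12 and its receptor Cxcr4 are known for guiding migrating muscle precursors and for vessel patterning.

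Gene rows summed to 110172148 and 103363136 estimated counts in replicates 1 and 2, and the family took 107810 and 102807 of them. The limit set by a count of 0 is 3 counts, which is 0.0272 and 0.0290 CPM (counts scaled to a fixed library total), for counting error only. All 10 limb mesenchyme markers were detected (summed TPM 764 and 1019, led by Twist1 at 216 and 279), as were all 5 basal epidermis markers (807 and 574, led by Krt5 at 333 and 237). The tissue also held 11 of 12 macrophage markers (233 and 288, led by Tyrobp at 42.1 and 59.7) and all 10 endothelial markers (448 and 486, led by Egfl7 at 218 and 254). All 8 erythroid markers (20878 and 21619, led by Hba-a2 at 7878 and 8689), all 5 lymphatic endothelial markers (46.8 and 38.3, led by Pdpn at 28.4 and 19.7) and 5 of 6 muscle progenitor markers (116 and 148, led by Myod1 at 67.0 and 91.2) were detected too. Of the other leukocyte lists, 4 of 5 mast cell markers (159 and 139, led by Cpa3 at 68.6 and 56.6), 4 of 7 neutrophil markers (29.5 and 51.7, led by S100a8 at 12.5 and 25.5) and 2 of 6 platelet markers (15.9 and 23.6, led by Gp1bb at 8.72 and 14.1) were detected. Lymphoid and dendritic lists were nearly empty: 1 of 8 T cell markers (Lck, 8.23 and 8.42, with Cd8b1 at 0 counts), 1 of 5 B cell markers (Cd79b, 2.27 and 2.11, with Ms4a1 listed at 0 TPM), 1 of 6 dendritic cell markers (Zbtb46, 3.17 and 3.58) and 0 of 5 natural killer cell markers (highest Klrd1, 0.20 and 0.16, with Ncr1 at 0 counts).

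Few members were abundant. Levels are given as the deposited TPM (transcript abundance scaled to a fixed total), a per-length scale that allows genes to be set side by side, and a gene counted as detected at 1 TPM or more in both libraries. By this rule 25 of the 59 members were detected, or 42.4%, beside 62.8% of all protein-coding genes. At 10 TPM or more in both libraries stood 6 members, beside 41.7% of all protein-coding genes, and at 100 TPM or more 2 members, beside 5.81%. The median member had 0.68 TPM and the median protein-coding gene 5.84 TPM. No count in either library was found for 4 members, Ccl1, Ccl19, Ccl26 and Xcl1, beside 15.8% of protein-coding genes. These are whole-tissue levels: fewer cells of a type and less RNA per cell cannot be told apart.

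**Figure D1:**
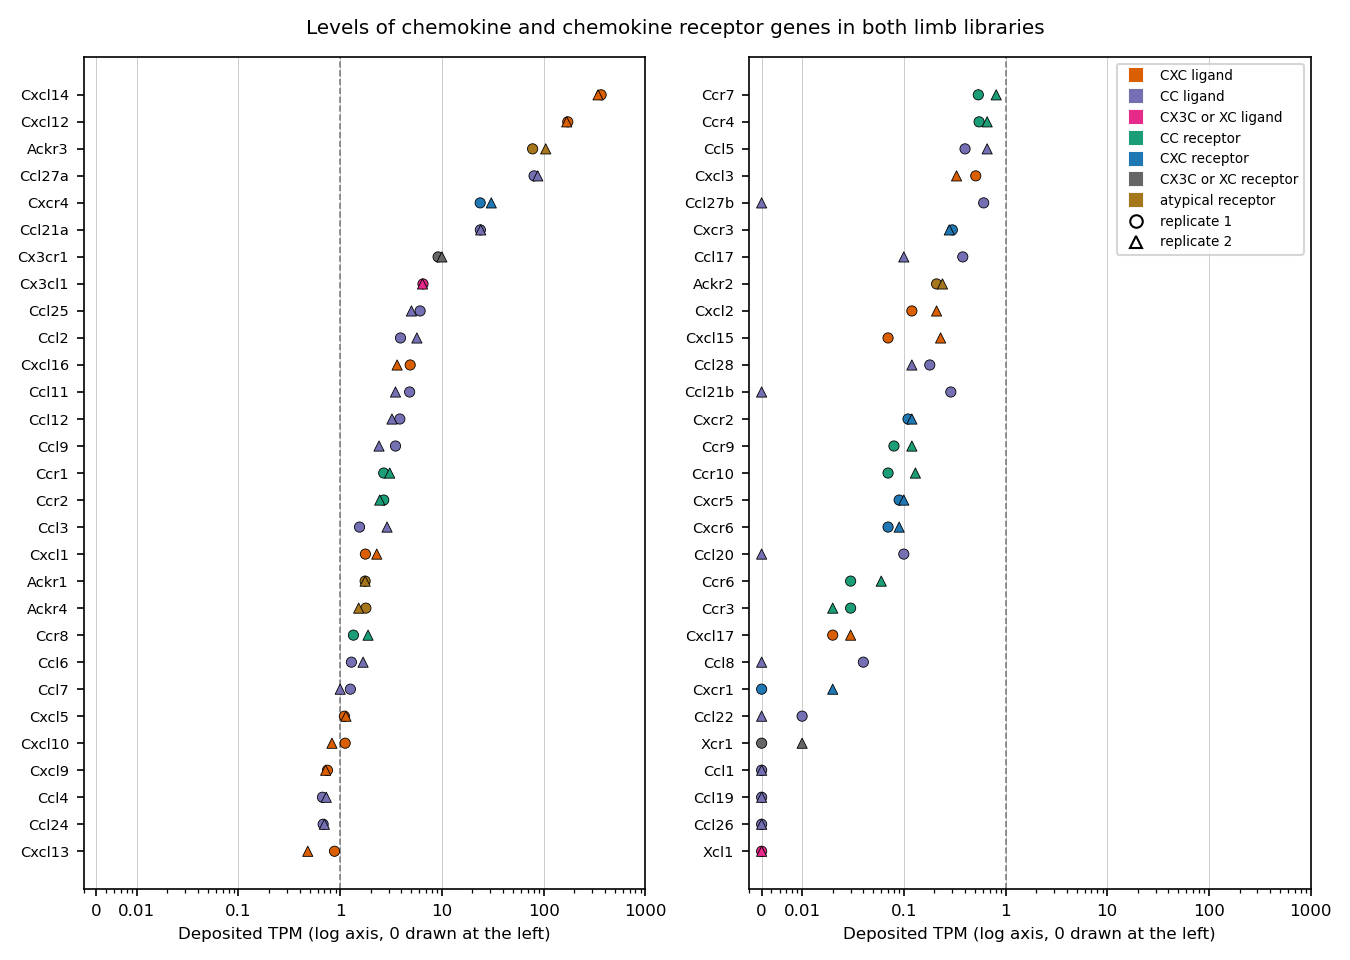
Deposited TPM of the members reported here on a log axis, ordered by the mean; circles are replicate 1, triangles replicate 2, colours the class of the gene, and the dashed line marks 1 TPM. Cxcl14 and Cxcl12 stand above 100 TPM in both libraries, while the members of the right panel lie between 0 and 0.81 TPM.

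The family's RNA was concentrated in a handful of genes. Summed over members, the TPM was 817 in replicate 1 and 829 in replicate 2. Cxcl14 alone took 45.0% and 41.4% of it (43.2% ± 2.57, SD, n = 2), and Cxcl14 with Cxcl12 66.2% and 61.8%. With Ackr3 and Ccl27a added the share was 85.6% and 85.1%, and with Cxcr4 and Ccl21a 91.4% and 91.7%. By structural class, the 12 CXC ligands held 67.6% and 63.0% and the 23 CC ligands 16.4% and 16.8%. The 4 atypical receptors held 10% and 13.1%, more than the 18 signalling receptors together with 5.23% and 6.23%. Nearly all of the atypical share was that of Ackr3, which alone held 9.54% and 12.7%.

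Homeostatic ligands carried most of the ligand RNA. The grouping into homeostatic and inflammatory ligands follows textbook use and was made after the levels were seen, so it is a description only. Of 11 homeostatic ligands 6 were detected, and the set held 80.8% and 76.8% of the family's TPM. Of 25 inflammatory ligands 10 were detected, and they held 4.01% and 3.86%. The highest inflammatory ligand, Ccl2, reached a mean of 4.80 TPM.

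Cxcl14, a chemokine of skin and other epithelia and of mesenchyme whose signalling receptor is debated, was the highest member. It stood at 368 TPM in replicate 1 and 343 in replicate 2 (356 ± 17.5, SD, n = 2), which ranked it 304 among the protein-coding genes. Its counts, 44840 and 38271, all fell on 1 annotated transcript (chromosome 13, 56288643 to 56296551, minus strand, GRCm38). It exceeded Cxcl12 by 1.05 on the log2(TPM + 1) scale (SE 0.21, 95% interval 0.52 to 1.59), a ratio of TPM of 2.13 and 2.03 in the libraries, and this was beyond their spread. Over Cxcr4 the excess was 3.67 (SE 0.21, 95% interval 3.14 to 4.21).

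Cxcl12, the ligand shared by Cxcr4 and Ackr3, came next at 173 and 169 TPM (171 ± 2.67, SD, n = 2). Its libraries nearly coincided, and it ranked 729 among protein-coding genes. The gene lies on chromosome 6 from 117168535 to 117181367 on the plus strand. Of its 4 annotated transcripts, Cxcl12-202 took 58.3% and 54.6% of the gene's TPM, Cxcl12-203 26.4% and 27.6%, Cxcl12-201 8.79% and 11.1%, and the intron-retaining Cxcl12-204 6.45% and 6.75%. The order of the 4 was the same in both libraries.

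The 3 coding transcripts differ only at the end of the reading frame. Their first 267 coding bases are the same, and the models then hold 89 codons in Cxcl12-202, 93 in Cxcl12-203 and 119 in Cxcl12-201, the lengths known as the alpha, beta and gamma forms. Below, the last 30 shared bases are in lower case and the bases of each transcript's own end, stop codon included, are in capitals, read from GENCODE M21 transcripts. The shared stretch starts at position 117173550. The alpha end lies in exon 3 (117173492 to 117175069), the beta end in an exon from 117178583 to 117181366, and the gamma end in an exon from 117176086 to 117181367.

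Cxcl12-202: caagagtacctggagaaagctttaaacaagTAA
Cxcl12-203: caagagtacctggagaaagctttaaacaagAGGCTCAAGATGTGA
Cxcl12-201: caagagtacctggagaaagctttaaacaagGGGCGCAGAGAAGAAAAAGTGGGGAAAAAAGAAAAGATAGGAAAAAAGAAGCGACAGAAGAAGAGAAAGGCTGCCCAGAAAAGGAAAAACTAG

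The gamma end adds 93 bases after the shared stretch, stop codon included, and the beta end 15. The lowest share among the coding forms thus belonged to the transcript with the longest own end. In TPM the alpha form stood at 96.5 ± 6.05 (SD, n = 2), the beta form at 46.1 ± 0.622 and the gamma form at 17 ± 2.57. The gamma transcript is 5627 nucleotides long and the alpha transcript 1878. The counts behind their TPM values were therefore closer, 6181 and 7090 against 12689 and 10633. The last exon of the beta transcript lies within the last exon of the gamma transcript. How far reads from that shared stretch moved the split between them was not tested.

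Ackr3, the atypical receptor that binds and clears Cxcl12, was the highest receptor, at 78 TPM in replicate 1 and 105 in replicate 2 (91.7 ± 19.5, SD, n = 2). Its replicates lay further apart than those of the ligands above. Cxcr4, the signalling receptor of Cxcl12, stood at 23.8 and 30.6 TPM (27.2 ± 4.83, SD, n = 2) and was also the higher in replicate 2. The deposited effective length of Cxcr4, by which TPM divides, was 1268 and 1104 nucleotides, while its CPM was 20.5 and 22.8. The TPM ratios to Cxcr4 below hold this difference in length too. The ligand exceeded both receptors. Cxcl12 was above Cxcr4 by 2.62 on the log2(TPM + 1) scale (SE 0.20, 95% interval 2.11 to 3.13), with TPM ratios of 7.27 and 5.53. Over Ackr3 the excess was 0.91 (SE 0.22, 95% interval 0.35 to 1.46), with ratios of 2.22 and 1.60. Ackr3 itself exceeded Cxcr4 by 1.71 (SE 0.22, 95% interval 1.16 to 2.27), with ratios of 3.28 and 3.45. In both libraries the order was therefore Cxcl12, then Ackr3, then Cxcr4, and all 3 steps were beyond the spread. Without a filter on low values the step from Cxcl12 to Ackr3 kept its size of 0.91, but its interval held 0.

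Cxcr4 was counted as 2 transcripts that begin differently. Cxcr4-201 took 62.5% and 47.4% of the gene's TPM and Cxcr4-202 37.5% and 52.6%, so the leading form changed between the libraries. The coding starts are shown because they are what tells the 2 models apart at the 5′ end; they are on the minus strand of chromosome 1, from position 128592209 downwards. Capitals mark 6 bases, starting at coding base 16, that the first exon of Cxcr4-201 (128592189 to 128592290) holds and that of Cxcr4-202 (128592195 to 128592293) lacks.

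Cxcr4-201: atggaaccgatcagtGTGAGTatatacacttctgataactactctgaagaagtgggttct
Cxcr4-202: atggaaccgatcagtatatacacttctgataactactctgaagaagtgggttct

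The models also differ in extent. Cxcr4-201 spans 1805 nucleotides with 359 codons, whereas Cxcr4-202 is annotated over 902 nucleotides and ends without a stop codon. How far reads from the shared second exon moved the split was not tested.

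**Figure D2:**
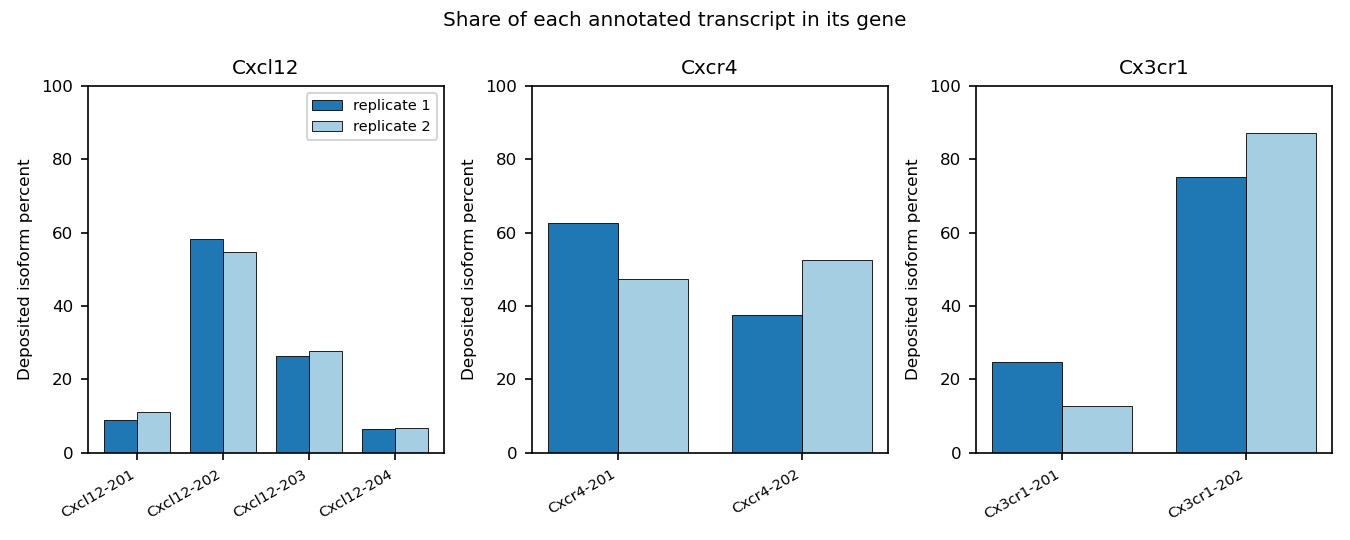
Deposited isoform percent, the share of each annotated transcript in its gene, for Cxcl12, Cxcr4 and Cx3cr1, with dark bars for replicate 1 and light bars for replicate 2. Cxcl12-202 leads in both libraries at 58.3% and 54.6%, while the leading Cxcr4 transcript differs between them.

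Ccl27a, a ligand of Ccr10 made by keratinocytes, was the highest CC ligand at 80.6 and 87.7 TPM (84.2 ± 5.04, SD, n = 2). Its receptor Ccr10 stood at only 0.07 and 0.13 TPM, from 8 and 14 counts. The difference, 6.27 on the log2(TPM + 1) scale (SE 0.19, 95% interval 5.80 to 6.75), was the widest of the 32 pairs compared. Ccl27a needs care on 2 measured grounds. Its counts are fractional, which marks reads that fit other genes too (its near-identical copy Ccl27b stood at 0.61 and 0 TPM), and the gene overlaps Il11ra1 on the opposite strand, itself at 205 and 258 TPM. Among its 20 annotated transcripts, those not annotated as coding took 54.2% and 56.3% of its TPM, and the leading one in replicate 2, Ccl27a-210, retains an intron.

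Ccl21a, the Ccr7 ligand that lymphatic endothelium makes to draw in dendritic and T cells, stood at 23.9 and 24.1 TPM (24 ± 0.184, SD, n = 2). Ccr7 was far lower, at 0.54 and 0.81 TPM, and the difference was 3.90 (SE 0.18, 95% interval 3.45 to 4.36). Counts of Ccl21a and of its near-copy Ccl21b (0.29 and 0 TPM) were fractional too, so how reads divide between the copies is uncertain. Ccl19, the other ligand of Ccr7, had no count in either library. Ccl25, the ligand of Ccr9 known from thymus and gut, stood at 6.11 and 5.02 TPM, and Ccr9 at 0.08 and 0.12. This gap of 2.57 (SE 0.18, 95% interval 2.12 to 3.02) was again beyond the spread. Transcripts of Ccl25 not annotated as coding, several of them marked for decay, made up 45.2% and 56.2% of its TPM.

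The fractalkine pair went the other way. Cx3cl1, a ligand anchored in the membrane, stood at 6.52 and 6.45 TPM (6.48 ± 0.0495, SD, n = 2), and Cx3cr1, its receptor on monocytes and tissue macrophages, at 9.18 and 10 (9.61 ± 0.601, SD, n = 2). The ligand was thus lower by 0.50 on the log2(TPM + 1) scale (SE 0.16, 95% interval -0.91 to -0.09). Cx3cr1 was counted mainly on Cx3cr1-202, with 75.3% and 87.2%. The gene model spans 168264 bases and overlaps genes on both strands, among them Gorasp1 on the same strand at 23.8 and 27.3 TPM.

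Monocyte ligands and their receptor Ccr2 lay between 1.00 and 5.68 TPM. Ccl2 stood at 3.92 and 5.68 TPM, Ccl12 at 3.86 and 3.23, and Ccl7 at 1.26 and 1.00, against 2.68 and 2.45 for Ccr2. Ccl2 was above Ccr2 by 0.69 (SE 0.19, 95% interval 0.20 to 1.17) and Ccl7 below it by 0.74 (SE 0.17, difference -0.74, 95% interval -1.18 to -0.31). Ccl12 did not differ from Ccr2 beyond the spread (0.35, SE 0.17, 95% interval -0.08 to 0.78). These small ligand genes give few reads per transcript: on the CPM scale, which does not correct for length, Ccl2 and Ccl12 lay below Ccr2.

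Ligands of Ccr1 were of the same low order as the receptor. Ccr1 stood at 2.68 and 3.07 TPM, and among its ligands Ccl9 at 3.50 and 2.41, Ccl3 at 1.55 and 2.89 and Ccl6 at 1.29 and 1.68. Ccl6 was lower than Ccr1 by 0.64 on the log2 scale (95% interval -1.09 to -0.20, SE 0.17), whereas the intervals for Ccl9 (-0.46 to 0.49) and Ccl3 (-0.84 to 0.25) held 0. Ccl4 and Ccl5, attractants of monocytes and T cells, were lower still: Ccl4 was at 0.67 and 0.73 TPM and Ccl5 at 0.40 and 0.66.

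In 4 further pairs the ligand was detected and the receptor was not. Ccl11, or eotaxin, stood at 4.82 and 3.50 TPM and its receptor Ccr3 at 0.03 and 0.02. Cxcl16, a membrane-bound ligand, stood at 4.88 and 3.63 TPM and its receptor Cxcr6 at 0.07 and 0.09. Their differences were 2.32 (SE 0.19, 95% interval 1.84 to 2.80) and 2.27 (SE 0.19, 95% interval 1.80 to 2.74). Among neutrophil attractants Cxcl1 stood at 1.77 and 2.29 TPM and Cxcl5 at 1.10 and 1.14, with their receptor Cxcr2 at 0.11 and 0.12 and Cxcr1 at 0 and 0.02. Cxcl1 exceeded Cxcr2 by 1.44 (SE 0.18, 95% interval 0.98 to 1.89) and Cxcl5 by 0.93 (SE 0.17, 95% interval 0.49 to 1.37).

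Ccr8, a receptor of some T cells and macrophages, showed the reverse: it stood at 1.35 and 1.88 TPM while its ligand Ccl1 had no count. The difference was -1.38 (SE 0.18, 95% interval -1.85 to -0.91). Of the remaining atypical receptors, Ackr1, which binds many chemokines on red cells and venules, stood at 1.76 TPM in both libraries. Its count was fractional in replicate 1, at 125.32, and the gene overlaps Cadm3 on the same strand, itself at 5.03 and 3.83 TPM. Ackr4, which clears Ccl19, Ccl21 and Ccl25, stood at 1.79 and 1.52, and Ackr2, which clears inflammatory CC ligands, at 0.21 and 0.24. Ackr1 exceeded Ackr2 by 1.17 (SE 0.17, 95% interval 0.74 to 1.61). Ackr4 was below Ackr3 by 5.11 (SE 0.20, difference -5.11, 95% interval -5.63 to -4.59). The Ackr1 value depends on the estimator: the deposited posterior mean TPM was 7.77 and 8.20, with 77.2% and 78.3% of it placed on a transcript of 167 nucleotides that had no counts.

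Members that missed the detection rule numbered 34. Cxcl10, an interferon-induced ligand of Cxcr3, lay across the threshold at 1.12 and 0.83 TPM, and the other 33 were below 1 TPM in both libraries. Cxcl9, induced by interferon as well, stood at 0.75 and 0.72 TPM and their receptor Cxcr3 at 0.30 and 0.28. Cxcl10 was above Cxcr3 by 0.61 (SE 0.18, 95% interval 0.16 to 1.07), whereas for Cxcl9 the interval of -0.01 to 0.87 held 0. Cxcl13, which organises B cell follicles, stood at 0.88 and 0.48 and its receptor Cxcr5 at 0.09 and 0.10, a difference of 0.61 (SE 0.19, 95% interval 0.12 to 1.09). Ccl24, an eotaxin, stood at 0.68 and 0.70. Ccr4 was at 0.55 and 0.66 TPM and its ligand Ccl17 at 0.38 and 0.10, with Ccl22, the other ligand, at 0.01 and 0; the interval for Ccl17 over Ccr4 held 0 (-0.86 to 0.10). Cxcl3 stood at 0.51 and 0.33, Cxcl2 at 0.12 and 0.21, Cxcl15 at 0.07 and 0.23, and Ccl28, a mucosal ligand of Ccr10, at 0.18 and 0.12, a difference from Ccr10 of 0.06 (SE 0.18, 95% interval -0.39 to 0.52). Ccl20, Ccl8, Cxcl17, Ccr6 and Xcr1 each stood at 0.10 TPM or less in both libraries, from 5 counts or fewer.

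The 28 ligand and receptor pairs include Cxcl14 over Cxcr4, counted as ligand higher, although the signalling receptor of Cxcl14 is debated. Over these 28 the ligand was higher in 13 and the receptor in 6, and for 9 the interval held 0. That interval joins the variances of the 2 genes and is not the spread of their difference between the libraries. Cxcl9 over Cxcr3, 1 of the 9, was 0.43 in each library. Among the 9 are also pairs such as Ccl20 with Ccr6 and Xcl1 with Xcr1, where both genes were close to 0. These data do not bear on the order within such pairs. For Ccl19 over Ccr7 the difference was -0.74 (SE 0.18, 95% interval -1.20 to -0.27). With 4 pairs of other kinds, 23 of 32 pairs differed beyond the spread. Without a filter on low values 16 did: besides Cxcl12 over Ackr3, the intervals that then held 0 include those for Ccl2 and Ccl7 over Ccr2, Ccl6 over Ccr1, Cxcl10 over Cxcr3 and Cxcl13 over Cxcr5. In CPM those for Cxcl10 and Cxcl13 held 0 as well, and with posterior mean TPM those for Cxcl13 and for Ccl19 over Ccr7.

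**Figure D3:**
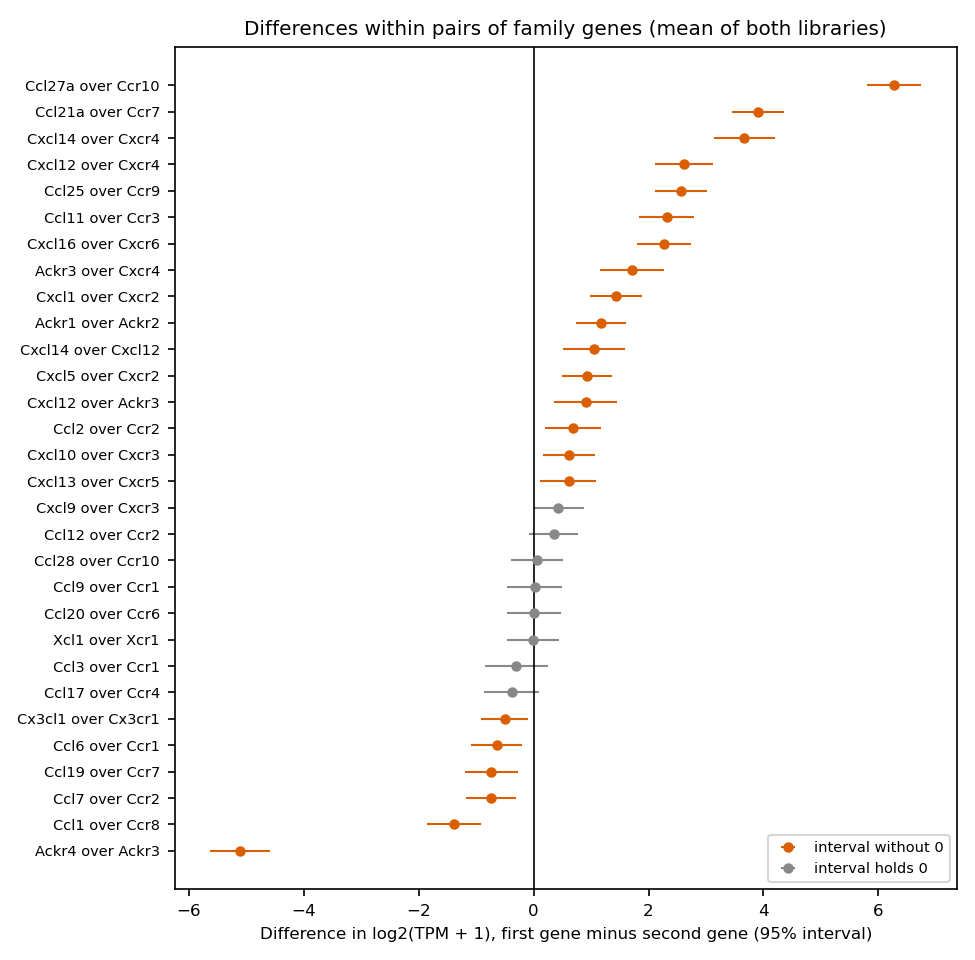
Difference in log2(TPM + 1) between the genes of each pair reported here, first gene minus second, as the mean of both libraries with its 95% interval from the limma fit; orange marks an interval without 0 and grey an interval that holds 0. Ccl27a over Ccr10 lies at the top with 6.27 and Ackr4 over Ackr3 at the foot with -5.11.

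Ordered by mean TPM, the detected members formed a few steps followed by a long slope. Among 24 neighbouring pairs in that order, the library values of 16 overlapped and the intervals of 5 excluded 0. These 5 steps were Cxcl14 over Cxcl12, Cxcl12 over Ackr3, Ccl27a over Cxcr4 (1.61, SE 0.20, 95% interval 1.11 to 2.11), Ccl21a over Cx3cr1 (1.24, SE 0.17, 95% interval 0.81 to 1.66) and Cx3cr1 over Cx3cl1. Ackr3 and Ccl27a were not separated (0.11, SE 0.21, 95% interval -0.43 to 0.65), nor were Cxcr4 and Ccl21a (0.16, SE 0.19, 95% interval -0.31 to 0.63). From Cx3cl1 down to Cxcl5 no interval between neighbours excluded 0.

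On the chromosomes, most of the highest members stood alone. With neighbours less than 1 Mb apart joined, 39 members lay in 10 runs of 2 or more genes and 20 stood alone. Of the members in runs 17 were detected, or 43.6%, and of the lone members 8, or 40.0%. The lone genes included Cxcl14, Cxcl12, Ackr3 and Cxcr4. Within runs, levels differed widely between neighbours. The run on chromosome 4 (41769467 to 42773993) held Ccl27a and Ccl21a, and as a whole took 12.9% of the family's TPM in replicate 1 and 13.5% in replicate 2, while Ccl19 between them had no count. On chromosome 11 the run of monocyte and eosinophil ligands (82035571 to 82305690) had 4 of 6 detected, Ccl2, Ccl7, Ccl11 and Ccl12, beside Ccl8 with a single count and Ccl1 with none. The second run there (83525778 to 83664683) had Ccl9, Ccl6 and Ccl3 detected of 5. The receptor run on chromosome 9 (123678439 to 124147699) had Ccr1 and Ccr2 detected, and Ccr3, which lies between Ccr1 and Ccr2, was near 0.

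**Figure D4:**
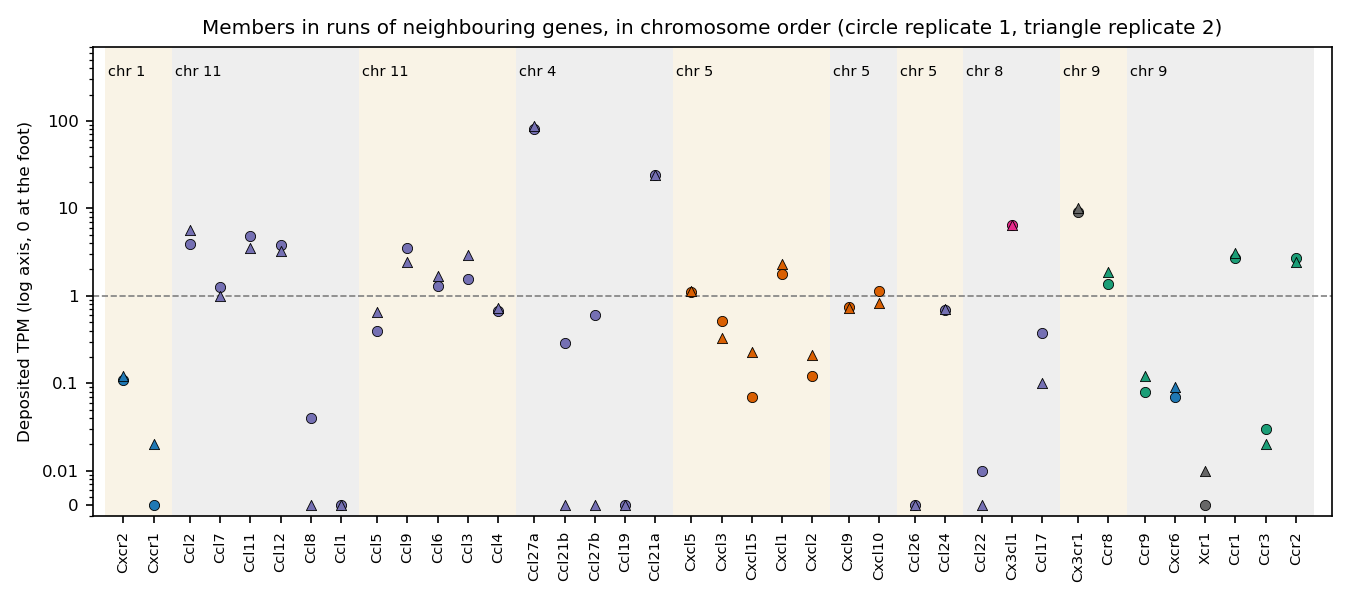
Deposited TPM of the members reported here that lie in runs of neighbouring genes, in chromosome order on a log axis, with circles for replicate 1 and triangles for replicate 2; shaded bands are the 10 runs and the dashed line marks 1 TPM. Ccl27a and Ccl21a stand above their neighbours on chromosome 4, and Ccr3 lies near 0 between Ccr1 and Ccr2 on chromosome 9.

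Upstream sequence was examined as a feature that the choice of members did not use. Of the 59 members, 45 had at least 1 RefSeq promoter window (GRCm38.p6), 52 windows in all among 32851. The 250 bases before each start site were searched on both strands for 3 sets of letters, without allowing mismatches. The TATA box letters TATAAA occurred in 26.9% of member windows and 12.4% of all windows; the kappaB letters, GGGA and TTCC with any pair of letters between them, in 11.5% and 1.21%; and the interferon response letters, GAAA and again GAAA with any pair of letters between, in 5.77% and 2.98%. Overlapping matches on the 2 strands were counted as 1 window.

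The kappaB letters, which NF-kappaB binds in genes induced by inflammation, occurred upstream of Ccl1, Ccr3, Cxcl1, Cxcl10, Cxcl2 and Cxcl3. That is 5 of 16 inflammatory ligands with a window, 0 of 11 homeostatic ligands and 1 of 18 receptors. Only Cxcl1 of these 6 was detected. Among members with a window, the letters thus occurred upstream of 1 of 19 detected and 5 of 26 not detected. The stretches of the 4 CXC ligands are given on the strand of the gene with the match in capitals, because 3 of them share it letter for letter. They lie at chr5:90891159-90891198 for Cxcl1, chr5:90903787-90903826 for Cxcl2, chr5:90786013-90786052 for Cxcl3, all on the plus strand, and chr5:92349024-92349063 on the minus strand for Cxcl10.

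Cxcl1: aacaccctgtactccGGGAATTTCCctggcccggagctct
Cxcl2: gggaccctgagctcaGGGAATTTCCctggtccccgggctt
Cxcl3: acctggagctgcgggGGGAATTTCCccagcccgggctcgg
Cxcl10: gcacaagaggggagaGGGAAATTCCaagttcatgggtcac

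The matches start 71, 97, 73 and 159 bases before the start sites of Cxcl1, Cxcl2, Cxcl3 and Cxcl10. The level of these genes in the limb was low, from 0.12 TPM for Cxcl2 in replicate 1 to 2.29 for Cxcl1 in replicate 2. Interferon response letters occurred upstream of Ccl19, Cxcl10 and Cxcl14. The TATA box letters occurred upstream of 14 members, 7 of 19 detected and 7 of 26 not detected, among them both Cxcl12 receptors. In the stretches below, on the gene's strand, the match is in capitals; they lie at chr1:128592309-128592344 (minus) for Cxcr4 and chr1:90203957-90203979 (plus) for Ackr3.

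Cxcr4: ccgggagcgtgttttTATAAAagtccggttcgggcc
Ackr3: ctttcccgcagtgtaTATAAAag

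The match starts 30 bases before the start site in Cxcr4 and 8 bases before it in Ackr3. A match is a description of the letters only.

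The libraries were compared gene by gene by an exact binomial test (two-sided, conditional on the gene's total), adjusted by Benjamini-Hochberg over 20396 genes; it compares these 2 libraries and not conditions. Of the 47 members with at least 10 counts, 13 were called, 9 higher and 4 lower in replicate 2, beside 60.6% of all genes tested, 30.3% higher and 30.3% lower. With library size alone as the scaling, 11 were called, 6 of them higher in replicate 2. At an unadjusted p under 0.05 by the binomial test stood 16 members. The share of all genes was not counted for either of these. The test knows only counting error. With the spread between the libraries taken from edgeR's common dispersion, its exact test called 0 members, beside 1.05% of all genes, 0.27% higher and 0.784% lower. Before adjustment 2 members had a p under 0.05 by edgeR's exact test, and the share of all genes at that level was not counted. None of the differences below passed that second test after adjustment. Its dispersion was estimated from the same 2 libraries it compares, so their difference is also its noise and few calls can be reached. The second test is therefore no independent check on the binomial calls.

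Ackr3 differed most clearly in counts, 16563 in replicate 1 and 20677 in replicate 2, a log2 ratio of 0.43 (adjusted p = 4.95e-182 by the exact binomial test, adjusted p = 1 by edgeR's exact test). Cxcr4, with 2258 and 2357 counts, was higher by 0.18 in replicate 2 once scaled. Both Cxcl12 receptors thus leaned the same way, while Cxcl12 itself, with 31167 and 29290 counts, was at 0.02 and was not called (adjusted p = 0.072 by the exact binomial test). Beside these members, the limb mesenchyme markers summed to 764 and 1019 TPM, with 10 of 10 called higher in replicate 2. The muscle progenitor markers summed to 116 and 148, with 5 of 6 called higher. By the binomial test 30.3% of all genes tested were called higher, and that test knows only counting error. The part of these markers in the result was not tested.

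Called higher in replicate 2 as well were Ccl3 (0.83 on the log2 scale, 66 and 109 counts), Ccl2 (0.43, 189 and 236 counts), Ccr1 (0.19, 529 and 559 counts), Ccr7 (0.57, 72 and 99 counts) and Ccr8 (0.44, 97 and 122 counts). Among members of monocytes and macrophages or their ligands, Cx3cr1 (0.09), Ccr2 (-0.11), Ccl7 (-0.39), Ccl12 (-0.40) and Ccl9 (-0.10) were not called. Of the 12 macrophage markers 8 were called higher and 2 lower in replicate 2, beside 30.3% of all genes tested in each direction. The markers summed to 233 and 288 TPM, and their part in the result was not tested. Cxcl15, a lung chemokine, was called at 1.65 from 10 and 30 counts, and Ccl27a at 0.09.

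Lower in replicate 2 were Cxcl14 (-0.12, adjusted p = 9.21e-30 by the exact binomial test), Ccl11 (-0.50, 319 and 209 counts), Cxcl13 (-0.88, 64 and 32 counts) and Ccl27b (10.41 and 0 counts). Basal epidermis markers were lower beside Cxcl14, from 807 to 574 TPM in sum. Of these 5 markers 4 were called lower, beside 30.3% of all genes tested, and their part in the result was not tested. The fitted value of Ccl27b depends on the prior count and is no bound, and its count is fractional like that of Ccl27a. Of the 13 calls, those of Ccr1, Ccr8 and Ccl27a were lost when library size alone or the ERCC spike-ins set the scaling.

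**Figure D5:**
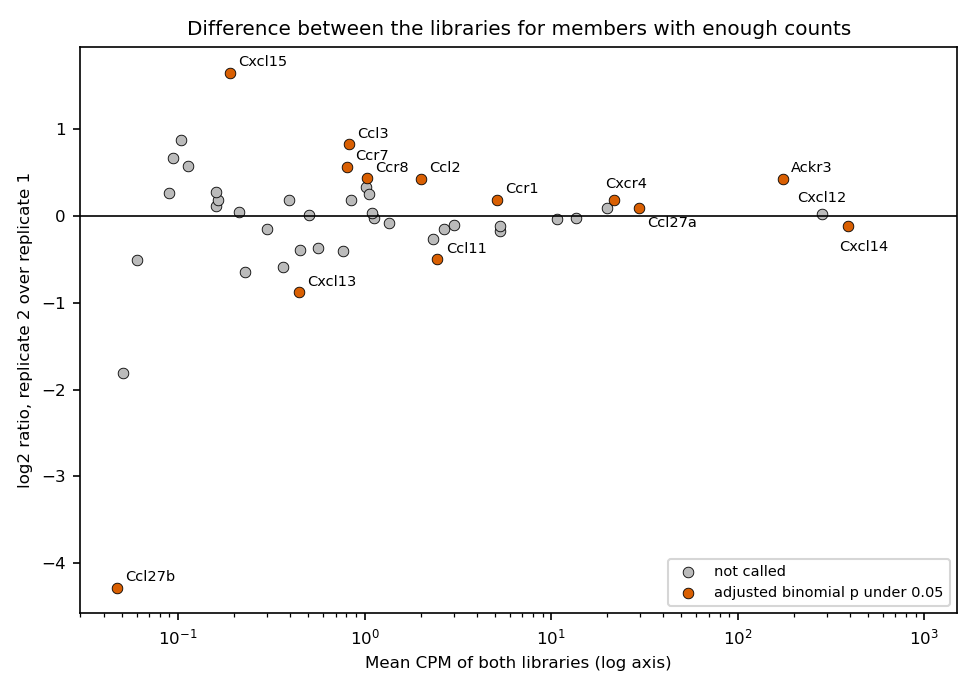
Log2 ratio of replicate 2 over replicate 1 against the mean CPM of both libraries (log axis) for the members reported here with at least 10 counts; orange points have an adjusted binomial p under 0.05 and grey points do not. Ackr3 at 0.43 stands out among the members above 100 CPM, and Ccl27b at the foot rests on 10.41 and 0 counts.

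Transcript shares were less stable than gene levels for several members. Of the 25 detected members, 9 had 1 annotated transcript and 16 had several. The leading transcript was the same in both libraries for 10 of the 16 and changed for Ccl25, Ccl27a, Ccl6, Ccl9, Cxcl16 and Cxcr4. For Cxcl16 the coding form Cxcl16-201 took 42.8% and 68.2%, and Cxcl16-202, annotated for nonsense-mediated decay, 53.3% and 30.9%. Its gene TPM went from 4.88 to 3.63 while the log2 ratio of its scaled counts was -0.17; the deposited effective length of the gene, by which TPM divides, was 1696 and 2021 nucleotides. For Ccl9 the coding form took 43.1% and 61.8%, and for Ccl6 52.5% and 35.3%. Their other forms rest on few counts, 29.8 and 11.1 for Ccl9-202 beside 317 and 289 for Ccl9-201, and 24.1 and 41.7 for Ccl6-202. The gene TPM of Ccl9 went from 3.50 to 2.41 with effective lengths of 1322 and 1783, while its scaled counts had a log2 ratio of -0.10. Ackr3 was stable by contrast, with 98.8% and 98.9% on Ackr3-201.

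The shared machinery downstream of the receptors was broadly present, whereas 9 of the 22 receptors were detected, beside 16 of the 37 ligands. Of all protein-coding genes 62.8% were detected, and the median protein-coding gene had 5.84 TPM. Of 26 genes for G protein and arrestin signalling 25 were detected (median 21.9 TPM), led by Gnb2 at 643 and 909 TPM, Gnb1 at 424 and 560, the inhibitory subunit Gnai2 at 413 and 512, and Gng5 at 343 and 299. Rgs1, a brake on chemokine receptor signalling in leukocytes, stood at 0.29 and 0.32. Of 32 motility and kinase genes 31 were detected (median 16.5 TPM), led by Cdc42 at 285 and 245, Akt1 at 254 and 272, Rac1 at 282 and 239 and Rhoa at 198 and 175. Dock2, the leukocyte Rac activator, stood at 1.37 and 0.99. By the binomial test 9 of the G protein genes were higher and 7 lower in replicate 2, and 10 and 17 of the motility genes, beside the 30.3% of all genes tested called in each direction.

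Chemokine-related genes with other names were outside the naming rule and uneven. Of 13, 8 were detected (median 2.37 TPM). Mif, a cytokine that can bind Cxcr4, stood at 1372 and 2294 TPM, Hmgb1, which can form a complex with Cxcl12, at 412 and 194, the platelet chemokine Pf4 at 33.3 and 40.8, and the chemerin receptor Cmklr1 at 8.91 and 14.2. Pitpnm3 (0.87 and 0.95), Gpr35 (0.61 and 0.87), Ccrl2 (0.40 and 0.44) and Ccr1l1 (0.08 and 0.02) were below 1 TPM in both libraries, and Gpr182, an atypical receptor of endothelium, stood at 0.73 and 1.11. In this list 5 of 13 genes were called higher and 4 lower in replicate 2, beside 60.6% of all genes called either way.

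Of 15 leukocyte trafficking partners 12 were detected (median 2.32 TPM), led by the integrin chain Itgb1 at 158 and 136 TPM, Vcam1 at 52.4 and 44.1, S1pr1 at 17.2 and 20.2 and Icam1 at 12.2 and 13.0. The endothelial selectins that start leukocyte rolling were near 0, with Selp at 0.20 and 0.12 and Sele at 0.11 and 0.09. By the same test 6 of the 15 were higher and 2 lower in replicate 2, beside the same 60.6% of all genes.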

How the data were processed

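The members, pairs and lists were chosen with earlier results of these data known. For each library the authors deposited gene and transcript tables against mm10 with GENCODE M4, per the text file deposited with them; no source used here names the program. They hold expected counts, TPM, posterior mean TPM and FPKM, and for transcripts the isoform percent, per the file headers. Symbols and coordinates came from GENCODE M21 (GRCm38) by stable identifier; 884 of 43346 gene rows had no match. ERCC (2.39% and 2.36% of deposited counts) and phiX rows (1.35% and 1.94%) stayed out of library sizes and tests.

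Deposited expected counts were rounded for tests and divided by the library total for CPM. The binomial test used TMM factors of 1.007 and 0.9927 (edgeR 4.0.16), a minimum of 10 counts over both libraries, a prior count of 0.5 for ratios and a threshold of 0.05 after Benjamini-Hochberg adjustment. edgeR's exact test used a common dispersion of 0.03644 from an intercept-only model of the same libraries. Pairs came from an intercept-only limma fit (3.58.1, eBayes with trend) to log2(TPM + 1) of 15078 genes, those averaging 1 TPM or more and those in a pair; a difference whose 95% interval excluded 0 counted as beyond the spread, and no p was taken. A count was called fractional when more than 0.005 from a whole number. The binomial test and the limma intervals were checked on simulated data. Alternatives were other detection thresholds, units, pseudocounts, filters, scalings (DESeq2 1.42.0 size factors, library size alone, ERCC), a gap of 250 kb, and leaving out each library.

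Named by rule were members averaging 1 TPM or more, the genes of each pair and called members. The top 4 of each pathway list and, where 5 or fewer, its genes under 1 TPM were named too, as were the highest marker of each list and markers at 0. Dock2, Gpr182, Il11ra1, Gorasp1 and Cadm3 were chosen after their values were seen. Values of 2 genes, counted in the totals, are not reported here.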

Additional observations from a re-analysis of the deposited data

How the results depend on the processing

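Detection of 25 members held within 1.5 times under a threshold of 0.5 TPM (31), posterior mean TPM (25), CPM (20) and FPKM (19), and with 1 library alone (25 to 26), but fell to 9 at 5 TPM. At 5 TPM the chemokine-related genes with other names fell from 8 to 5 and the trafficking partners from 12 to 6. The count of library calls ran from 10 to 15 under other scalings and filters beside 13, and was 0 with edgeR's exact test. DESeq2 size factors gave 15 calls, 11 of them higher in replicate 2, and ERCC scaling 10 calls, 6 of them higher. The share of all genes called was counted only for the main setting and for edgeR's exact test. Pairs beyond the spread numbered 16 without a filter and 27 with a filter at 10 TPM or in CPM, beside 23. In CPM the direction turned for Ccl2 over Ccr2 (-1.08), Ccl12 over Ccr2 (-1.84), Ccl9 over Ccr1 (-0.60) and Ccl20 over Ccr6 (-0.01); CPM does not correct for length. Ccl20 over Ccr6 also turned with a pseudocount of 0.1 (-0.03) and Xcl1 over Xcr1 with posterior mean TPM (0.05), both from values near 0. Each library alone kept the direction of the 23 pairs beyond the spread. Among the other 9 the sign differed between replicates 1 and 2 for Ccl9 over Ccr1 (0.29 and -0.26), Ccl20 over Ccr6 (0.09 and -0.08) and Ccl28 over Ccr10 (0.14 and -0.01). The share of Cxcl14 ran from 41.4% to 45.0%, that of Cxcl12-202 from 54.6% to 58.3%, of Cxcr4-201 from 47.4% to 62.5% and of Cx3cr1-202 from 75.3% to 87.2%. Runs with a detected member numbered 7 at both gaps. Libraries could not be paired across groups because there is only 1 group. Within a library the 2 genes of a pair are measured together, but the intervals join their separate variances and leave that pairing out. For Ackr3 over Cxcr4 the libraries gave 1.67 and 1.75, while the SE of 0.22 came from those variances. Protein features of the members were planned and not run, since protein sequences were not used here. With 2 libraries, each spread rests on 1 difference, and members under 10 counts allow no statement on the libraries.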
